A study of Oryctolagus cuniculus with 39 samples.

Results

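C4BPA encodes the alpha chain of C4b-binding protein, a soluble inhibitor of the classical and lectin pathways of complement. It was examined together with C3, C1S, C1R, CFB, C2, C6, C7 and SERPING1, complement genes measured in the stroma of rabbit brown adipose tissue (BAT). These 9 genes were listed by symbol, and all 9 were found among the 20589 genes of the stromal table. They were matched to the whole-tissue table by gene identifier. C4BPA was chosen by a measured value, its rise from day 1 to 12 weeks, which was the largest in the stroma of the interscapular depot, so that rise is described here and not tested.

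The rabbits were New Zealand White and no genotype or treatment was given. Total iBAT is whole interscapular BAT (12 libraries), iBAT SVF is the stromal vascular fraction of that depot (12 libraries), and sBAT SVF is the same fraction of the subscapular depot (12 libraries). The stromal vascular fraction (SVF) holds the cells of the tissue other than fat cells. Each was sampled at day 1 after birth and again at 3, 6 and 12 weeks, with 3 libraries per age. The labels do not say whether libraries came from separate animals or pools, so p-values measure the spread between these libraries. Values are FPKM, a level per transcript length and per library, and the sequencing depth behind each value is unknown. In such bulk RNA, a change in the number of cells of a type and a change in RNA per cell cannot be told apart.

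Complement is a cascade of plasma proteins that tags cells and debris for removal. C1R and C1S are the proteases of the C1 complex, which starts the classical pathway, and SERPING1 (C1 inhibitor) blocks them. C2 and CFB supply the protease parts of the convertases that cleave C3, the central component, while C6 and C7 join the membrane attack complex. C4BPA holds C4b, the partner of C2, and helps its inactivation. The liver makes most of these proteins for plasma, and fibroblasts and macrophages of many tissues also transcribe them.

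The sBAT SVF libraries at 3 weeks stood apart. ADORA1 and UOX together held 63.9% to 80.4% of all FPKM in them, against 0.497% to 37.3% in the other SVF libraries, which lowers the FPKM of every other gene. Comparisons that use this group are therefore also given after median ratio scaling, which sets libraries to a common level by the median gene. Total iBAT at 3 weeks replicate 3 carried 4501 FPKM of summed skeletal muscle markers, against 3.10 and 4.32 in replicates 1 and 2. Adipocyte markers summed to 2449 to 6685 FPKM in total iBAT and to 100.8 to 1284 FPKM in the SVF, and 9 of 9 fibroblast and adipose progenitor markers were found in both tables.

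Every 12 weeks library held more C4BPA than every day 1 library of its tissue. In iBAT SVF it stood at 5.29, 11.76 and 9.98 FPKM at day 1 and at 10.94, 47.79 and 17.21 FPKM at 3 weeks. At 6 weeks the iBAT SVF libraries held 78.02, 48.72 and 59.23 FPKM, and at 12 weeks 398.95, 389.06 and 492.09 FPKM. The day 1 and 3 weeks libraries overlapped, those of 6 weeks lay above both, and those of 12 weeks lay far above the rest. The mean at 12 weeks was 47.4 times that at day 1. On the log2(FPKM + 1) scale used for every fold change here, the difference was 5.47. It ranked first of 5541 named genes with a mean of at least 10 FPKM in either group, ahead of NOX5 at 5.32, ALDH1A1 at 4.72 and SMPD3 at 4.49, and is the value for which the gene was chosen. C4BPA thereby moved from the top 27.7% of genes by mean level at day 1 to the top 0.777% at 12 weeks.

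**Figure D1:**
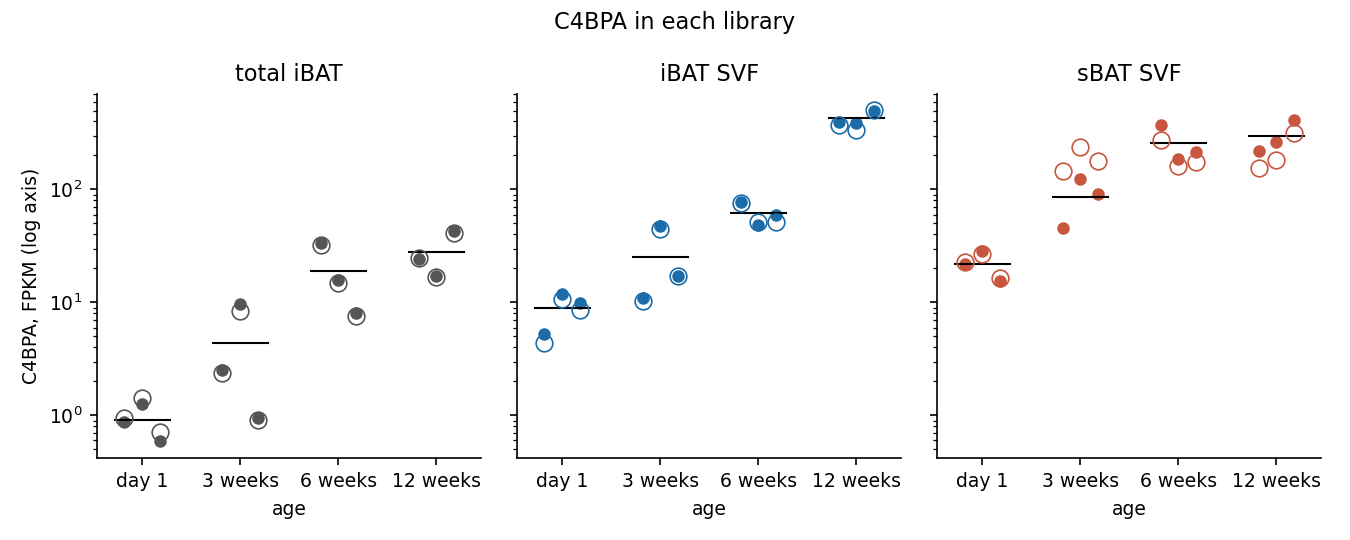
C4BPA level (FPKM, log axis) by age in total iBAT, iBAT SVF and sBAT SVF, 3 libraries per age. Filled points are deposited values, open points the same libraries after median ratio scaling, and black bars the group means of the deposited values; the 12 weeks libraries of iBAT SVF lie between 389.06 and 492.09 FPKM.

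In the step of that series that the choice of gene did not use, 6 weeks against 3 weeks, C4BPA was higher by 1.49 ± 0.43 (log2, SE) and did not pass the test (limma, adjusted p = 0.0836). The groups did not overlap, and after median ratio scaling the difference was 1.51 with an adjusted p of 0.0395. None of the 8 testable members was called as deposited, where 1.27% of the 13274 genes tested were called. At an unadjusted p under 0.05 there were 2 members and 2090 genes. With scaling, C4BPA was the 1 member called, where 3.9% of genes were called and 2.24% were higher.

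C4BPA rose in sBAT SVF, whose libraries had no part in choosing it. The labels do not say whether those libraries came from the same animals as iBAT SVF. C4BPA stood at 22.09, 28.31 and 15.49 FPKM at day 1 and at 45.39, 123.56 and 90.74 FPKM at 3 weeks, or 146.9, 236.3 and 178.8 after scaling. At 6 weeks the libraries held 370.88, 187.95 and 213.27 FPKM, and at 12 weeks 220.79, 263.48 and 416.37 FPKM. All later libraries lay above the day 1 libraries, and those of 6 and 12 weeks overlapped. The rise over day 1 was 1.86 ± 0.43 at 3 weeks (limma, adjusted p = 0.000724), or 3.04 after scaling (adjusted p = 2.08e-05). It was 3.47 ± 0.43 at 6 weeks (limma, adjusted p = 5.71e-06) and 3.70 ± 0.43 at 12 weeks (limma, adjusted p = 2.08e-06). ADORA1 and UOX held 26.2% to 37.3% of FPKM in the day 1 libraries and 5.21% to 8.81% at 12 weeks. After scaling the C4BPA means were 21.93 at day 1, 202.9 at 6 weeks and 218.3 at 12 weeks, and both rises were still called. Between 6 and 12 weeks the difference was 0.23 with an adjusted p of 0.778. From 3 to 6 weeks C4BPA rose by 1.61 as deposited (limma, adjusted p = 0.00179). After scaling that difference was 0.10, with an adjusted p of 0.893 and overlapping groups. The timing thus read differently by scaling: as deposited the mean went from 86.56 to 257.4 FPKM between 3 and 6 weeks, and scaled from 187.3 to 202.9.

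Whole interscapular tissue held less C4BPA than the stroma in FPKM, although the 2 tables were normalized separately. The total iBAT libraries stood at 0.87, 1.25 and 0.59 FPKM at day 1, and at 2.50, 9.70 and 0.94 FPKM at 3 weeks. They reached 33.39, 15.70 and 8.03 FPKM at 6 weeks and 24.48, 17 and 42.61 FPKM at 12 weeks. The 3 weeks libraries overlapped those of day 1, while the 6 and 12 weeks libraries lay above day 1 throughout. The differences from day 1 were 1.15 ± 0.59 at 3 weeks (limma, adjusted p = 0.138), 3.20 ± 0.59 at 6 weeks (adjusted p = 0.000888) and 3.85 ± 0.59 at 12 weeks (adjusted p = 0.000263). The last of these was the 32nd largest rise of 5983 named genes, and the sBAT SVF rise over the same ages was the 13th of 5878. Total iBAT is whole tissue of the depot whose stroma chose C4BPA. Whether its libraries share animals with iBAT SVF is not given, so its rise may not be independent of that choice. The rise from 3 to 6 weeks, 2.05 ± 0.59, passed narrowly (limma, adjusted p = 0.0446) with overlapping groups, and was lost in 4 of the 6 fits that left out 1 library. Those libraries were 3 weeks replicates 1 and 3 and 6 weeks replicates 1 and 2, and the highest adjusted p was 0.178. With the replicate number as a block the adjusted p was 0.063.

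The proteases of C1 and their inhibitor rose in whole tissue by 3 weeks. C1S stood at 13.60, 15.34 and 18.17 FPKM in total iBAT at day 1 and at 52.56, 137.95 and 44.60 FPKM at 3 weeks. C1R went from 11.84, 9.36 and 12.46 FPKM to 43.30, 130.08 and 34.64 FPKM over the same ages. SERPING1 went from 20.50, 21.36 and 26.66 FPKM to 84.43, 172.84 and 76.58 FPKM. For each of the 3 genes all libraries of 3 weeks lay above all of day 1, with replicate 2 highest. The share of all genes that separated in this way was not counted. The differences were 2.07 ± 0.40 for C1S (limma, adjusted p = 0.00195), 2.28 ± 0.52 for C1R (adjusted p = 0.00547) and 2.15 ± 0.40 for SERPING1 (adjusted p = 0.00167). At 12 weeks they were still 1.74, 1.94 and 1.87 above day 1, and all 3 were called.

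In the SVF these 3 genes were among the most abundant transcripts from birth. SERPING1 in iBAT SVF was at 272.92, 277.85 and 267.17 FPKM at day 1 and at 755.98, 790.27 and 706.06 FPKM at 12 weeks, within the top 0.442% of genes by mean level. C1R in iBAT SVF had means of 140.5 FPKM at day 1 and 335.0 FPKM at 12 weeks, and C1S of 161.8 and 232.2 FPKM. These iBAT SVF changes, with log2 differences of 1.46, 1.24 and 0.50, share their libraries with the contrast that chose C4BPA and carry no test. In sBAT SVF, SERPING1 rose from 139.36, 154.49 and 94.82 FPKM at day 1 to 594.79, 320.86 and 583.37 FPKM at 6 weeks and 353.56, 426.70 and 598.23 FPKM at 12 weeks. The 12 weeks rise was 1.81 ± 0.30 (limma, adjusted p = 7.52e-05) and 1.33 after scaling (adjusted p = 0.000872). The rises of C1S (0.99, adjusted p = 0.0334) and C1R (1.27, adjusted p = 0.013) at 12 weeks were lost after scaling, with adjusted p of 0.247 and 0.121. C1S was also lost without any of 5 of the 6 libraries (not day 1 replicate 1), and C1R without day 1 replicate 3.

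C1R and C1S neighbour each other in the RefSeq annotation of the rabbit genome. Their FPKM ratio, C1R to C1S, lay between 0.581 and 1.91 over all 36 libraries. In iBAT SVF it was 0.775 to 0.949 at day 1 and 1.2 to 1.67 at 12 weeks, without overlap. In total iBAT it was 0.61 to 0.871 at day 1 and 1.03 to 1.91 at 6 weeks, without overlap. At 12 weeks the total iBAT ratio was 0.639 to 1.14, which overlapped day 1. In sBAT SVF it was 0.718 to 0.765 at day 1 and 0.581 to 1.18 at 12 weeks, with overlap. Differences of this ratio by age were not tested. The ratio of C4BPA to SERPING1 had a median of 0.0374 at day 1 and 0.528 at 12 weeks in iBAT SVF, 0.163 and 0.624 in sBAT SVF, and 0.0424 and 0.333 in total iBAT. In each tissue series the lowest library of 12 weeks lay above the highest of day 1 on that ratio, which does not depend on the scaling of a library. In iBAT SVF these are the libraries that chose C4BPA, so the separation there is a description only.

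**Figure D2:**
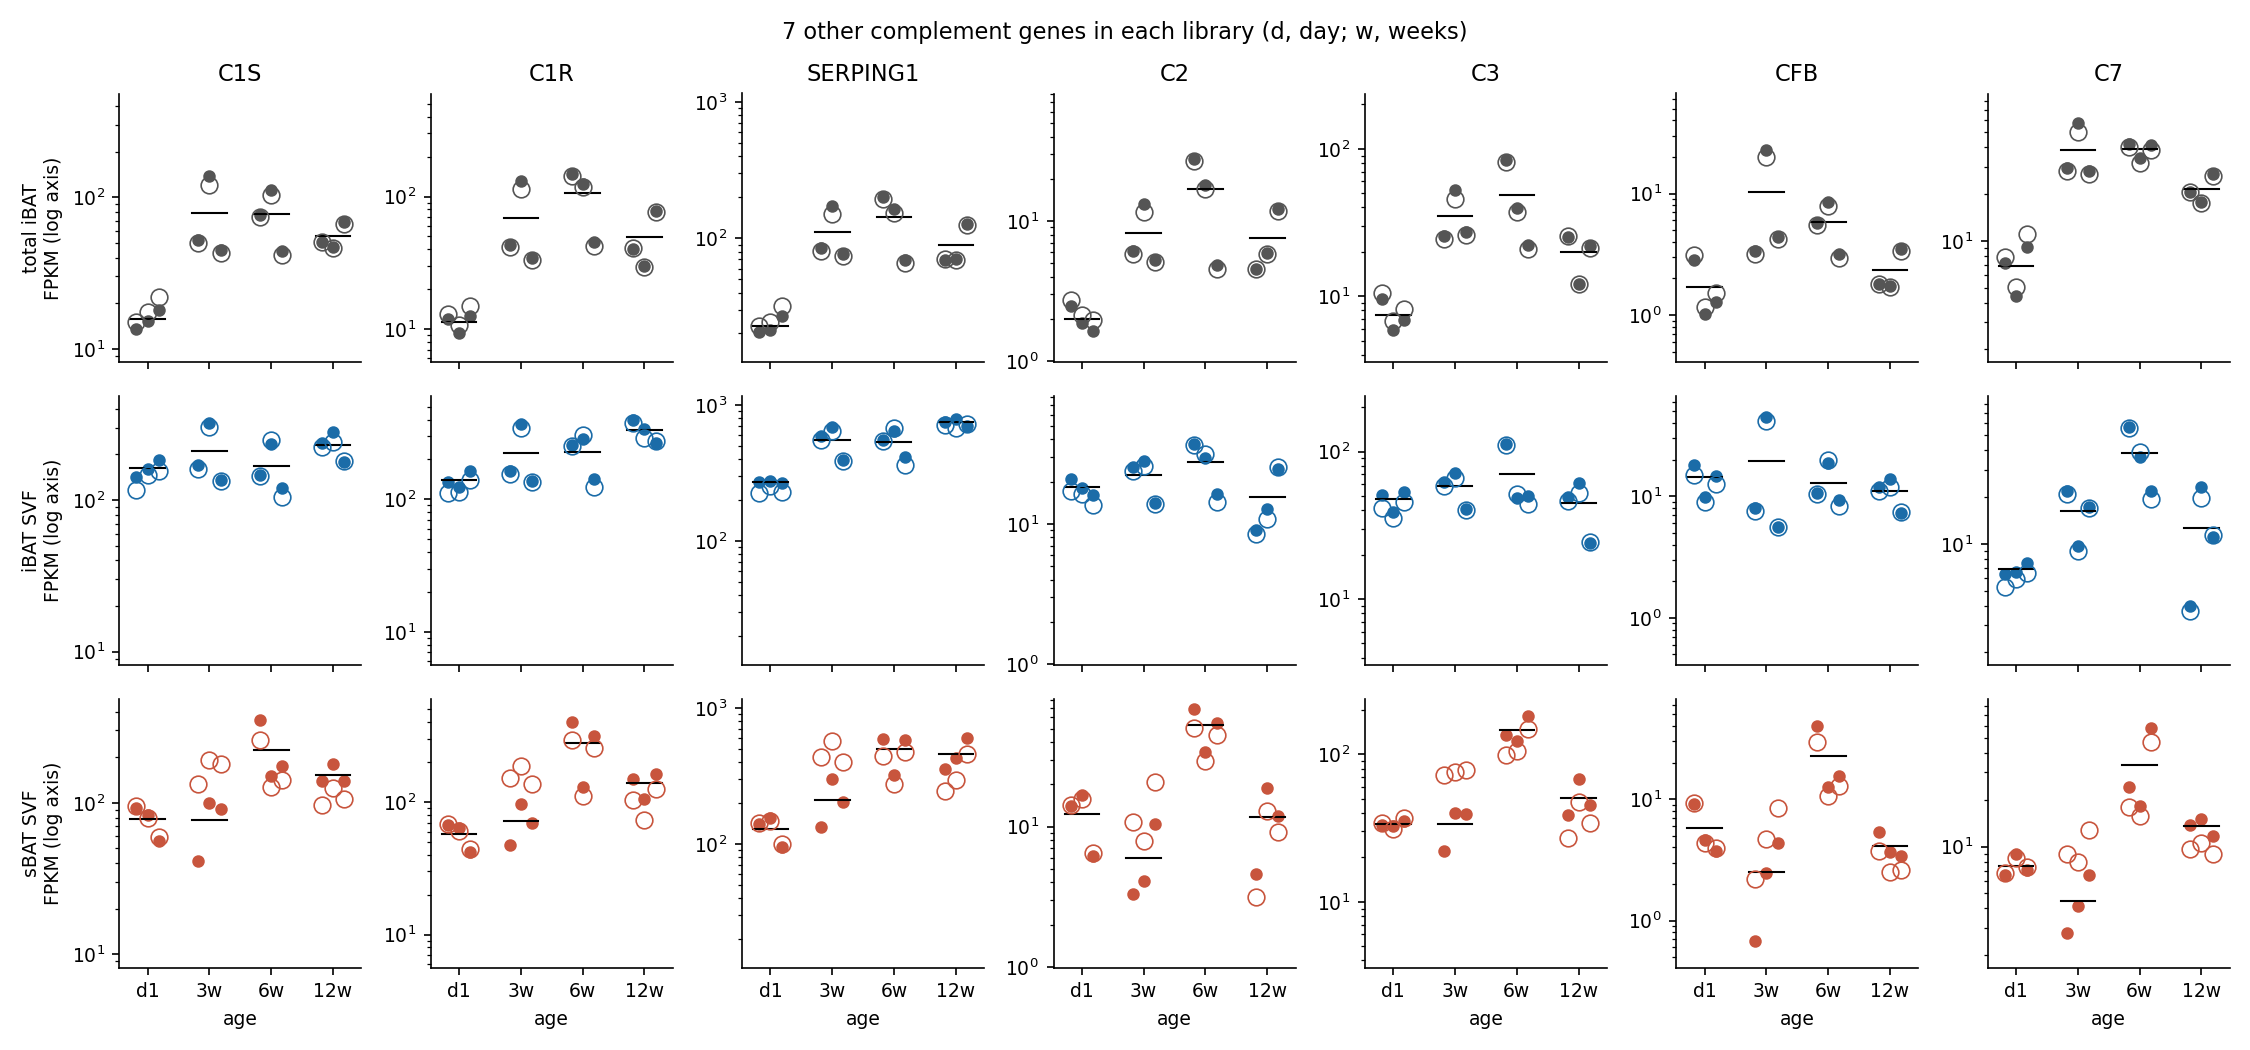
Levels (FPKM, log axis) of the other 7 measurable members by age and tissue, 3 libraries per age. Filled points are deposited values, open points the scaled ones and black bars the means of the deposited values; SERPING1 lies highest, and C3, C2 and CFB of sBAT SVF peak at 6 weeks.

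C3 and the convertase proteases had their highest means in total iBAT at 3 or 6 weeks. In total iBAT, C3 stood at 9.58, 5.94 and 6.84 FPKM at day 1, 25.55, 52.42 and 27.06 FPKM at 3 weeks, 84.32, 39.46 and 22.10 FPKM at 6 weeks and 25.27, 12.19 and 22.03 FPKM at 12 weeks. Every later library lay above the 3 day 1 libraries, and the rise at 6 weeks was 2.37 ± 0.43 (limma, adjusted p = 0.000844). C2 had means of 1.99, 8.20, 16.88 and 7.53 FPKM at the 4 ages, and CFB of 1.71, 10.23, 5.78 and 2.33 FPKM. C2 was called above day 1 at all 3 later ages and CFB at 3 weeks (1.67 ± 0.55, limma, adjusted p = 0.0302). From 6 to 12 weeks none of the 3 was called lower in total iBAT, and the libraries of these ages overlapped. Several of the calls against day 1 rested on single libraries. CFB at 3 weeks was lost without 3 weeks replicate 2, which held 22.92 FPKM against 3.35 and 4.41 in replicates 1 and 3, and without day 1 replicate 2 or 3, with adjusted p up to 0.0933. C2 at 3 weeks was lost without any of 5 libraries (not 3 weeks replicate 3) and C2 at 12 weeks without any of 5 (not 12 weeks replicate 1). C3 at 12 weeks was lost without any of 4 (not 12 weeks replicate 2 or day 1 replicate 1). Median ratio scaling also ended the calls of C2 at 3 and 12 weeks and of C3 at 12 weeks, with adjusted p of 0.0618, 0.0588 and 0.0582. The block did so for C2 at 12 weeks, at 0.0545.

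In sBAT SVF the same 3 genes rose from day 1 to 6 weeks and fell from 6 to 12 weeks as deposited. C3 stood at 33.33, 32.90 and 35.15 FPKM at day 1, 134.53, 123.81 and 182.05 FPKM at 6 weeks and 38.70, 68.01 and 45.06 FPKM at 12 weeks. C2 stood at 13.91, 16.69 and 6.13 FPKM at day 1, 68.51, 34.17 and 55.11 FPKM at 6 weeks and 4.56, 18.71 and 11.92 FPKM at 12 weeks. CFB stood at 9.12, 4.59 and 3.74 FPKM, then 40.23, 12.47 and 15.62 FPKM, then 5.33, 3.64 and 3.43 FPKM. For all 3 genes the 6 weeks libraries lay above both other ages without overlap. How many of all genes did so was not counted. From 6 to 12 weeks C3 fell by 1.54 ± 0.34 (limma, adjusted p = 0.00669), C2 by 2.2 ± 0.47 (adjusted p = 0.00533) and CFB by 2.05 ± 0.56 (adjusted p = 0.0225). These 3 were also the members called after scaling, and CFB was lost without 12 weeks replicate 2 or 3 or 6 weeks replicate 1. C4BPA, at 257.4 and 300.2 FPKM, and SERPING1, at 499.7 and 459.5 FPKM, had means at 12 weeks close to those of 6 weeks. Whether they differ in this step from C3, C2 and CFB was not tested. In iBAT SVF none of C3, C2 and CFB had means that varied more than 1.79 times over the 4 ages.

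Of the terminal pathway, C7 was expressed and C6 lay near 0. C6 reached at most 0.02 FPKM in any SVF library and 0.14 FPKM in any total iBAT library, did not pass the expression minimum, and is the 1 member of 9 without a test. C7, its neighbour in the annotation with MROH2B between them, stood in total iBAT at 7.2, 4.42 and 9.21 FPKM at day 1 and at 29.53, 57.71 and 28.05 FPKM at 3 weeks. At 6 weeks it held 41.99, 34.00 and 41.22 FPKM and at 12 weeks 20.53, 17.71 and 27.00 FPKM. All later libraries lay above day 1, with rises of 2.28 ± 0.29 (limma, adjusted p = 0.000171), 2.38 ± 0.29 (adjusted p = 4.68e-05) and 1.55 ± 0.29 (adjusted p = 0.000965). In sBAT SVF, C7 rose by 1.86 ± 0.46 at 6 weeks (limma, adjusted p = 0.00343), from 6.55, 8.90 and 7.03 FPKM to 24.18, 18.29 and 58.26 FPKM.

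Counted together, 7 of 8 testable members were called higher in total iBAT at 3 weeks than at day 1, all except C4BPA, where 41.7% of the 12853 genes tested were called and 31.8% were called higher. After scaling it was 6 of 8, with 37.9% of genes called and 17.7% higher. At 6 weeks 7 of 8 were higher, all except CFB (50.7% of genes called, 35.1% higher), and the same number after scaling (49.4% and 24.9%). At 12 weeks 7 of 8 were higher, again all except CFB (47% called, 31.3% higher), and 5 after scaling (46% and 23.6%). The median difference of the 8 members was 2.05, 2.37 and 1.64 at the 3 ages, beside 0.25, 0.24 and 0.19 over all genes. From 3 to 6 weeks C4BPA was the 1 member called, where 10.9% of genes were called and 4.08% higher, and again after scaling (10.7% and 4.79%). From 6 to 12 weeks limma called no member, with 2 at an unadjusted p under 0.05, where 0.195% of genes were called and 2000 had an unadjusted p under 0.05.

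In sBAT SVF at 3 weeks C4BPA was the 1 member called against day 1, and it was higher. As deposited 71.2% of genes were called there, 69.8% lower and 1.41% higher, and the median of all genes was -0.88. After scaling 5 members were higher, C4BPA, C3, C1S, C1R and SERPING1, where 32.3% of genes were called and 14.5% were higher. At 6 weeks all 8 were higher than at day 1 (35.8% of genes called, 27.5% higher), and all except CFB after scaling (31.3% and 15.5%). CFB there was also lost without day 1 replicate 2 or 3 or 6 weeks replicate 1. At 12 weeks 4 of 8 were higher, C4BPA, SERPING1, C1S and C1R (44.1% called, 38.3% higher), and C4BPA and SERPING1 after scaling (29.9% and 14.8%). The median of the 8 was 1.99 at 6 weeks and 0.88 at 12 weeks, beside 0.26 and 0.41 over all genes. From 3 to 6 weeks all 8 were higher as deposited, where 83.9% of genes were called and 83.6% higher, and C2 was the 1 member after scaling, where 16.5% were called and 9.09% higher. From 6 to 12 weeks 3 of 8 were lower, where 10.8% of genes were called and 2.68% lower, and the same 3 after scaling (9.36% and 5.25%). The comparisons with day 1 of one tissue share their day 1 libraries.

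**Figure D3:**
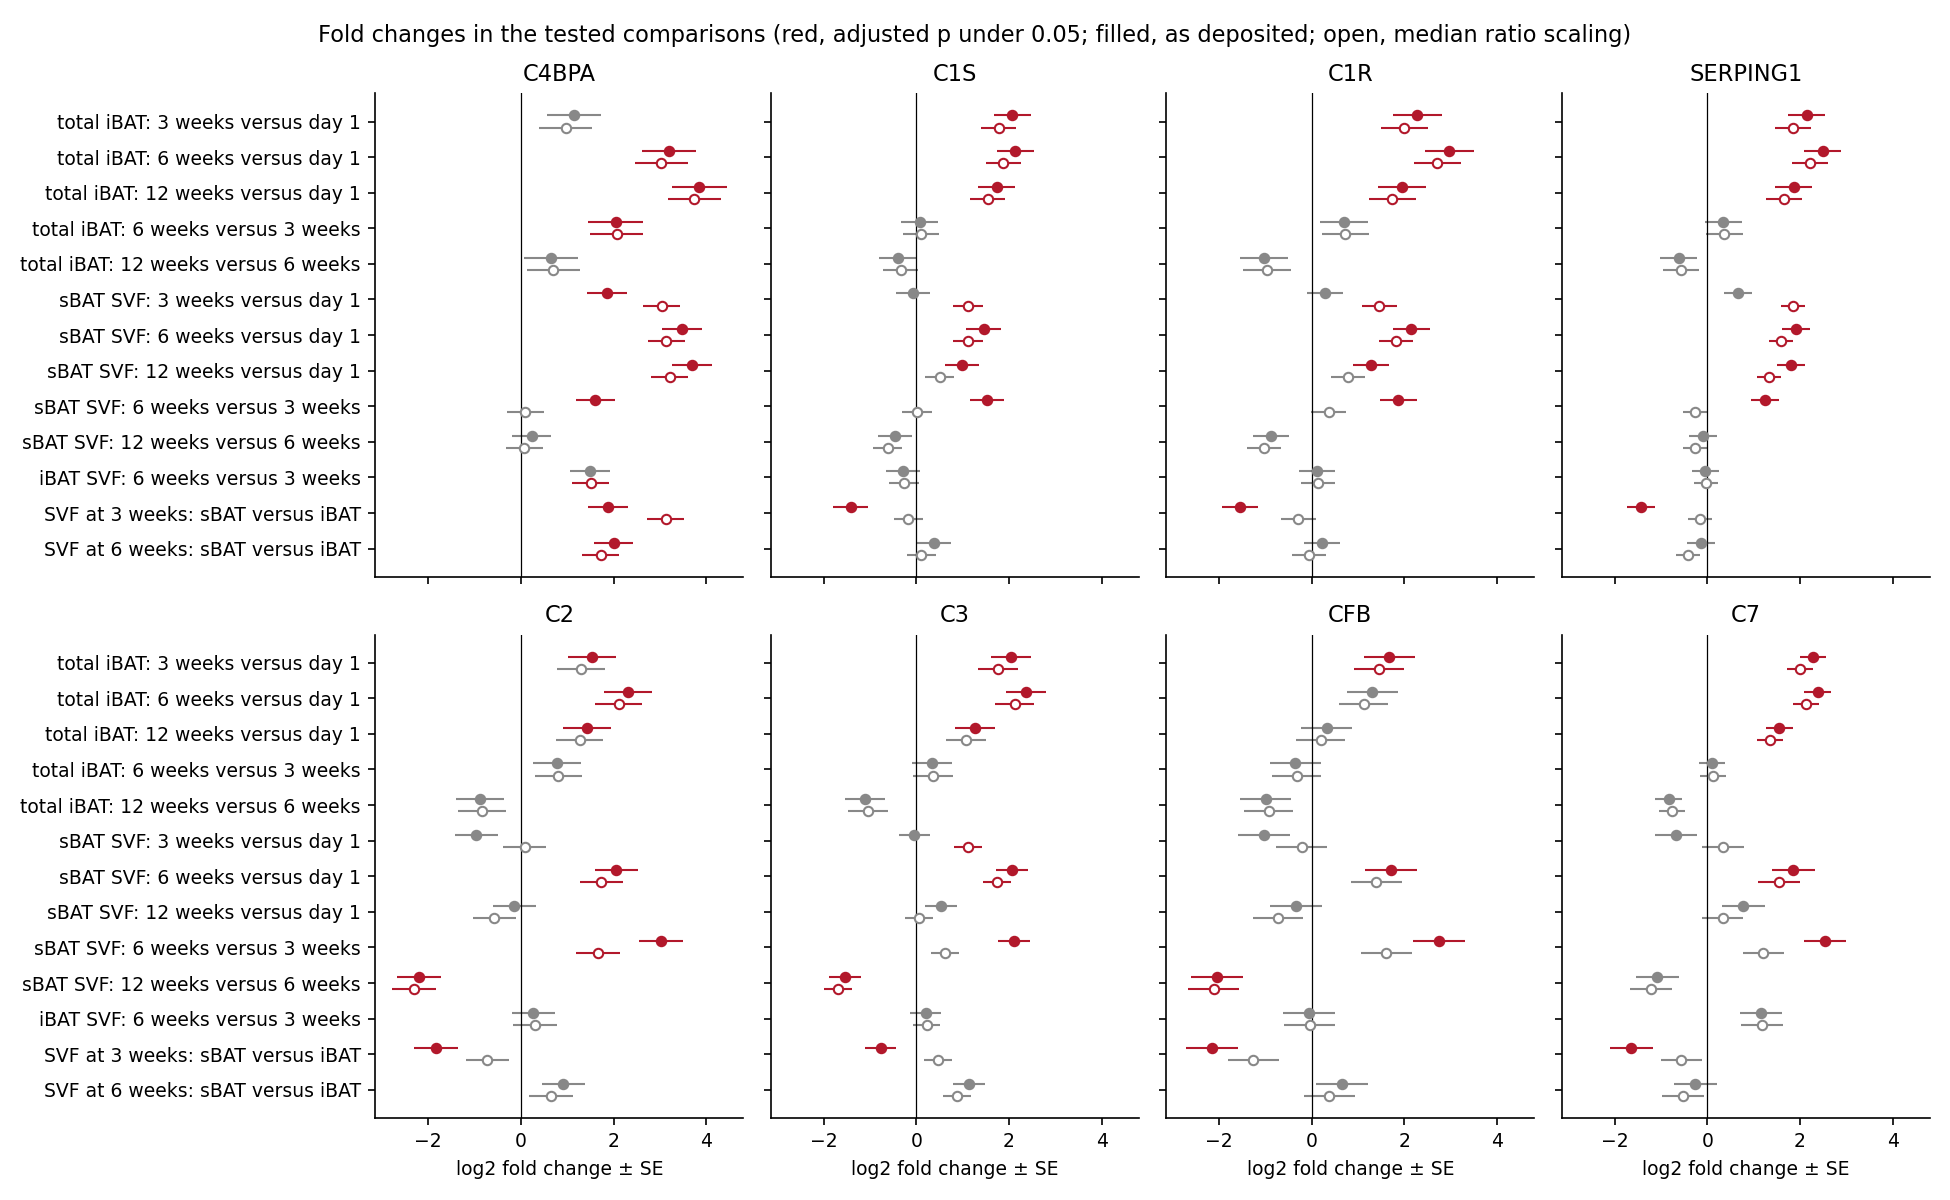
Log2 differences of the 8 testable members in the tested comparisons, with bars of 1 SE, as deposited (filled) and after median ratio scaling (open), with red for an adjusted p under 0.05. C4BPA passes in sBAT SVF at all 3 later ages against day 1, and at 6 and 12 weeks in total iBAT.

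C4BPA differed between the depots, with sBAT SVF above iBAT SVF at 3 and 6 weeks. At 3 weeks the means were 86.56 and 25.31 FPKM, a difference of 1.88 ± 0.43 (limma, adjusted p = 0.000594). The groups overlapped as deposited and separated after scaling, at 3.13 (adjusted p = 0.000304). As deposited all 8 members were called at 3 weeks, C4BPA higher and 7 lower in sBAT SVF, where 76.3% of genes were called and 76% lower and 0.331% higher. After scaling C4BPA was the 1 member called, where 7.86% of genes were called and 3.9% were higher. At 6 weeks the means were 257.4 and 61.99 FPKM without overlap, a difference of 2.0 ± 0.43 (limma, adjusted p = 0.0167), or 1.72 after scaling (adjusted p = 0.0438). C4BPA was again the 1 member called, where 2.47% of genes were called as deposited (2.12% higher) and 1.05% after scaling (0.512% higher). This call was lost without sBAT SVF 6 weeks replicate 1, iBAT SVF 6 weeks replicate 2 or iBAT SVF 6 weeks replicate 3, with adjusted p up to 0.131. At day 1 the sBAT SVF mean was 2.44 times that of iBAT SVF without overlap, and at 12 weeks 0.704 times with overlap, both as descriptions. The order of mean C4BPA levels in SVF as deposited was thus iBAT day 1, sBAT day 1, iBAT 3 weeks, iBAT 6 weeks, sBAT 3 weeks, sBAT 6 weeks, sBAT 12 weeks and iBAT 12 weeks. Of these 8 groups, the neighbours from sBAT day 1 to iBAT 3 weeks, from iBAT 6 weeks to sBAT 3 weeks, from sBAT 6 to 12 weeks and from sBAT to iBAT 12 weeks overlapped in their libraries as deposited. After scaling the sBAT 3 weeks libraries (146.9 to 236.3) lay above iBAT 6 weeks (51.95 to 76.55) and overlapped sBAT 6 weeks (160.8 to 274.2). The sBAT 12 weeks (153.6 to 318.3) and iBAT 12 weeks libraries (333.1 to 505) did not overlap then.

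Members also varied together to different degrees. Over the 24 SVF libraries, on the log2(FPKM + 1) scale, Pearson's r was 0.910 between C1S and C1R, 0.927 between C1R and SERPING1, and 0.748 between C2 and CFB. C4BPA had r of 0.544 with SERPING1, 0.458 with C1R, 0.353 with C1S, 0.266 with C3, 0.078 with C2 and -0.003 with CFB. After scaling C2 and CFB had r of 0.644, C4BPA and CFB -0.126 and C4BPA and C2 -0.008. These points share ages, depots and the low FPKM of the 3 weeks sBAT libraries, and are a description. They also include the iBAT SVF day 1 and 12 weeks libraries that chose C4BPA, so its r values rest in part on that choice. Of 6303 genes compared with C4BPA over the same 24 SVF libraries, those with the highest r were PENK (0.898), JCHAIN (0.856), CCL5 (0.821), SAPCD1 (0.820) and RLA-DMA (0.818). PENK encodes the precursor of the enkephalins, JCHAIN the joining chain of secreted IgM and IgA, and CCL5 a chemokine. PENK went from a median of 5.77 to 90.65 FPKM in iBAT SVF and from 4.55 to 99.38 FPKM in sBAT SVF between day 1 and 12 weeks. It was also the most alike gene after scaling, at 0.897, while the other 4 were not among the 5 highest then.

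Markers of other cell types moved with age beside these genes. The 9 fibroblast and adipose progenitor markers summed in total iBAT to 1401 to 2256 FPKM at day 1, 7067 to 11830 FPKM at 3 weeks, 7770 to 17430 FPKM at 6 weeks and 5181 to 10390 FPKM at 12 weeks. Over the 12 total iBAT libraries their sum had r from 0.66 for CFB to 0.97 for SERPING1 with the 8 members, and 0.68 with C4BPA. The 8 macrophage markers summed to 38.62 to 46.15 FPKM at day 1 and 48.97 to 138.7 FPKM at 6 weeks, with r from 0.51 for C4BPA to 0.93 for C2. Over the 24 SVF libraries the progenitor sum had r of 0.82 with C1R, 0.79 with SERPING1, 0.78 with C1S and 0.10 with C4BPA, or 0.76, 0.71, 0.65 and 0.02 after scaling. The macrophage sum there had r of 0.67 with C2, 0.62 with C3 and -0.19 with C4BPA, or 0.47, 0.53 and -0.25 after scaling. In iBAT SVF the progenitor sum ranged from 21510 to 34980 FPKM at day 1 and from 36360 to 43280 FPKM at 12 weeks. In sBAT SVF it ranged from 8918 to 15920 FPKM at day 1 and from 12240 to 21890 FPKM at 12 weeks, which overlap. The 24 SVF libraries include the iBAT SVF day 1 and 12 weeks libraries that chose C4BPA for its rise. The r values of C4BPA with the SVF marker sums are therefore a description only. The part of these markers in the results was not tested.

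**Figure D4:**
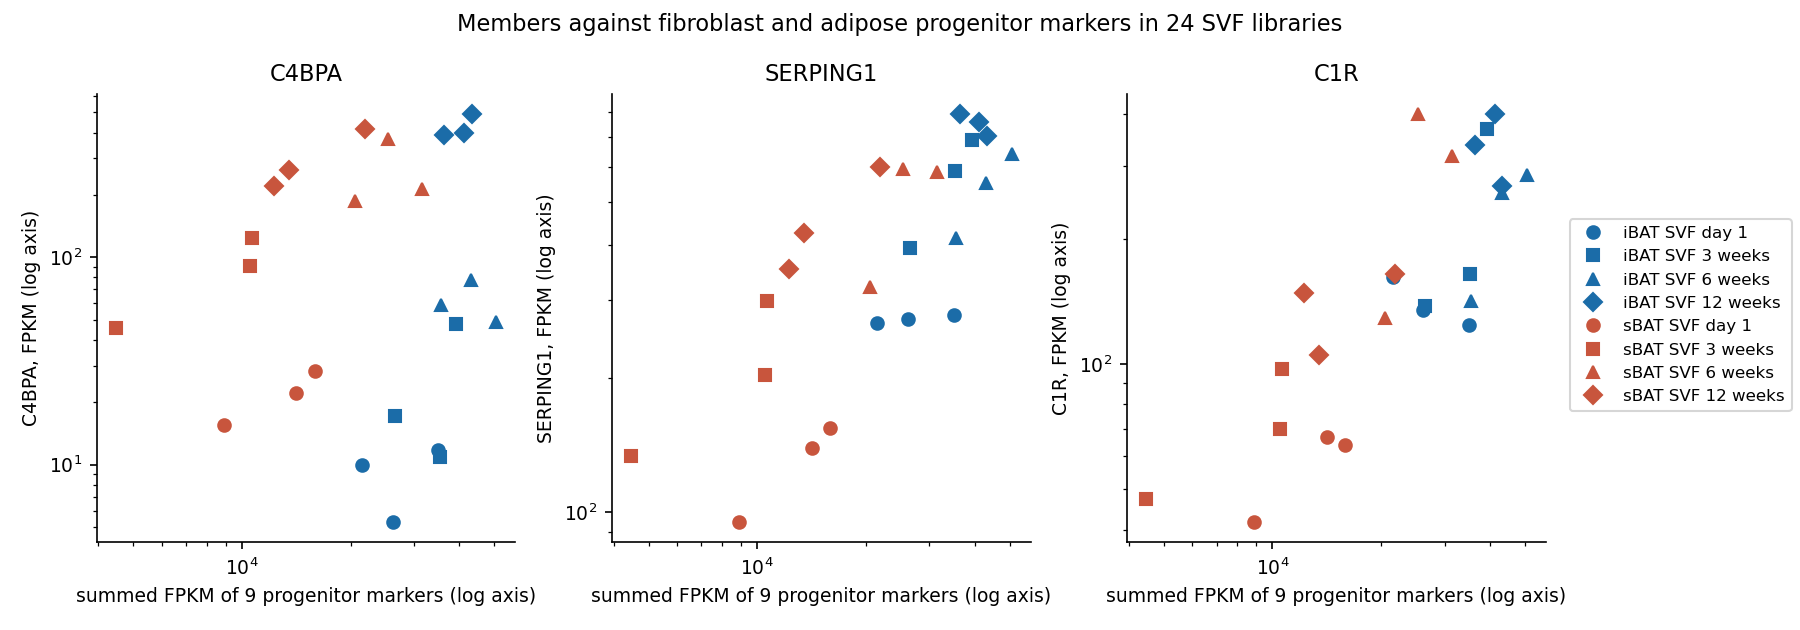
Member level against the summed level of 9 fibroblast and adipose progenitor markers (both FPKM as deposited, log axes) for C4BPA, SERPING1 and C1R, 1 point per SVF library, with colour for depot and shape for age. SERPING1 and C1R lie along the marker sum, while C4BPA differs widely at like marker sums. The points include the iBAT SVF libraries that chose C4BPA for its rise. The contrast of C4BPA with SERPING1 and C1R rests in part on that choice and is a description only.

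Lymphocyte markers also differed by age and depot. The 4 T cell markers summed to 2.90 to 9.08 FPKM in sBAT SVF at day 1 and to 39.81 to 89.3 FPKM at 12 weeks, and the 3 B cell markers found went from 1.12 to 4.24 FPKM up to 19.57 to 41.55 FPKM. In iBAT SVF at 12 weeks the T cell markers summed to 6.10, 23.11 and 9.24 FPKM in the libraries that held 398.95, 389.06 and 492.09 FPKM of C4BPA. At 6 weeks they summed to 1.5 to 3.92 FPKM in iBAT SVF and 8.80 to 15.45 FPKM in sBAT SVF, and those of B cells to 1.08 to 1.41 and 2.31 to 2.54 FPKM. Over the 24 SVF libraries r with C4BPA was 0.65 for the T cell and 0.53 for the B cell sum, the same after scaling. It was -0.68 for the Schwann cell, -0.58 for the skeletal muscle and -0.58 for the smooth muscle sum, or -0.53, -0.50 and -0.68 after scaling. The 24 libraries include the iBAT SVF day 1 and 12 weeks libraries that chose C4BPA, so these r values are a description only. Schwann cell markers summed to 296.9 to 723.3 FPKM at day 1 and 29.13 to 128.4 FPKM at 12 weeks in iBAT SVF, and to 156.8 to 261.9 and 47.54 to 73.71 FPKM in sBAT SVF. Smooth muscle markers summed to 879.7 to 1041 and 83.52 to 124.5 FPKM in iBAT SVF, and to 553.1 to 1304 and 195.7 to 270.6 FPKM in sBAT SVF, so both lists were lower at 12 weeks without overlap. Total iBAT 3 weeks replicate 2, highest of its group for C4BPA, C3, C1S, C1R, CFB, C2, C7 and SERPING1, also had T cell and B cell sums of 18.82 and 7.84 FPKM, against at most 0.29 and 0.51 FPKM in replicates 1 and 3. Without it the rises of C3, C1S, C1R, C7 and SERPING1 at 3 weeks still passed. The part of these cell types in the C4BPA result was not tested.

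The liver is the main known source of C4BPA, and hepatocyte markers were near 0 in the stroma. The 5 found summed to at most 0.6 FPKM in any SVF library. In total iBAT they summed to at most 0.16 FPKM at day 1, 0.69 FPKM at 3 weeks, 2.91 FPKM at 6 weeks and 25.34 FPKM at 12 weeks. Over the 12 total iBAT libraries their sum had r of 0.79 with C4BPA, the highest of the 14 marker lists. In total iBAT at 12 weeks ALB, the albumin gene, stood at 7.43, 24.54 and 9.13 FPKM, in libraries with 24.48, 17 and 42.61 FPKM of C4BPA. The marker sums there were 7.79, 25.34 and 9.57 FPKM, so nearly all of each sum was ALB. At that age 4 of the 5 markers lay under 1 FPKM in every total iBAT library. ALB was at 0 in all 3 day 1 libraries, and FGB, a fibrinogen chain, reached at most 0.06 FPKM. The part of liver RNA in the total iBAT values was not tested.

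Other complement genes were read from the same fits. Of 46 listed, 31 were found in the SVF table, and 18 were testable in total iBAT and 19 in SVF. In total iBAT 6 rose and 4 fell from day 1 to 12 weeks (5 and 4 after scaling), and 9 rose and 4 fell to 6 weeks (8 and 4). In sBAT SVF 5 rose and 1 fell to 12 weeks (2 and 3 after scaling), and 9 rose and 1 fell to 6 weeks (7 and 2). Over all genes the share called lower in total iBAT was 15.7% at 12 weeks and 15.6% at 6 weeks (22.4% and 24.5% after scaling), and in sBAT SVF 5.86% and 8.29% (15% and 15.8%). The share called higher was 31.3% and 35.1% in total iBAT (23.6% and 24.9% after scaling), and 38.3% and 27.5% in sBAT SVF (14.8% and 15.5%). The rises to 12 weeks as deposited, 6 of 18 and 5 of 19 genes, were thus near or below the background. CLU, clusterin, an inhibitor of the membrane attack complex, had the lowest adjusted p of them in total iBAT, rising from a mean of 19.39 to 191.2 FPKM by 12 weeks (3.29, limma, adjusted p = 1.36e-05). It also rose in sBAT SVF (3.24, limma, adjusted p = 3.69e-06). CFI, the protease that cleaves C4b held by C4b-binding protein, rose in sBAT SVF by 2.0 (limma, adjusted p = 5.36e-06) and in total iBAT by 0.95. CD59, a membrane inhibitor of the terminal complex, rose in total iBAT by 1.97. CD55, which speeds the decay of convertases, fell there from 114.2 to 44.86 FPKM (-1.33, limma, adjusted p = 9e-05). C9, the pore-forming component, also fell in total iBAT, by 0.93. CFHR5 fell there from a mean of 1.52 FPKM to a listed 0 (limma, adjusted p = 0.00791). COLEC10, a collectin, rose from a listed 0 to 0.99, 1.25 and 1.62 FPKM at 12 weeks (limma, adjusted p = 0.000885). CFHR5 and COLEC10 lay near the expression minimum of 1 FPKM. Each could pass it only through libraries of ages other than the one listed at 0. Their calls, included in the counts above, are therefore a description only. VSIG4, a macrophage receptor for C3b, rose by 1.08, which was not called after scaling (0.89, adjusted p = 0.0532). In sBAT SVF VTN, vitronectin, fell by 0.70. MASP1 (0.84) and CD93 (1.71) rose there as deposited and were not called after scaling, with adjusted p of 0.051 and 0.0678.

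**Figure D5:**
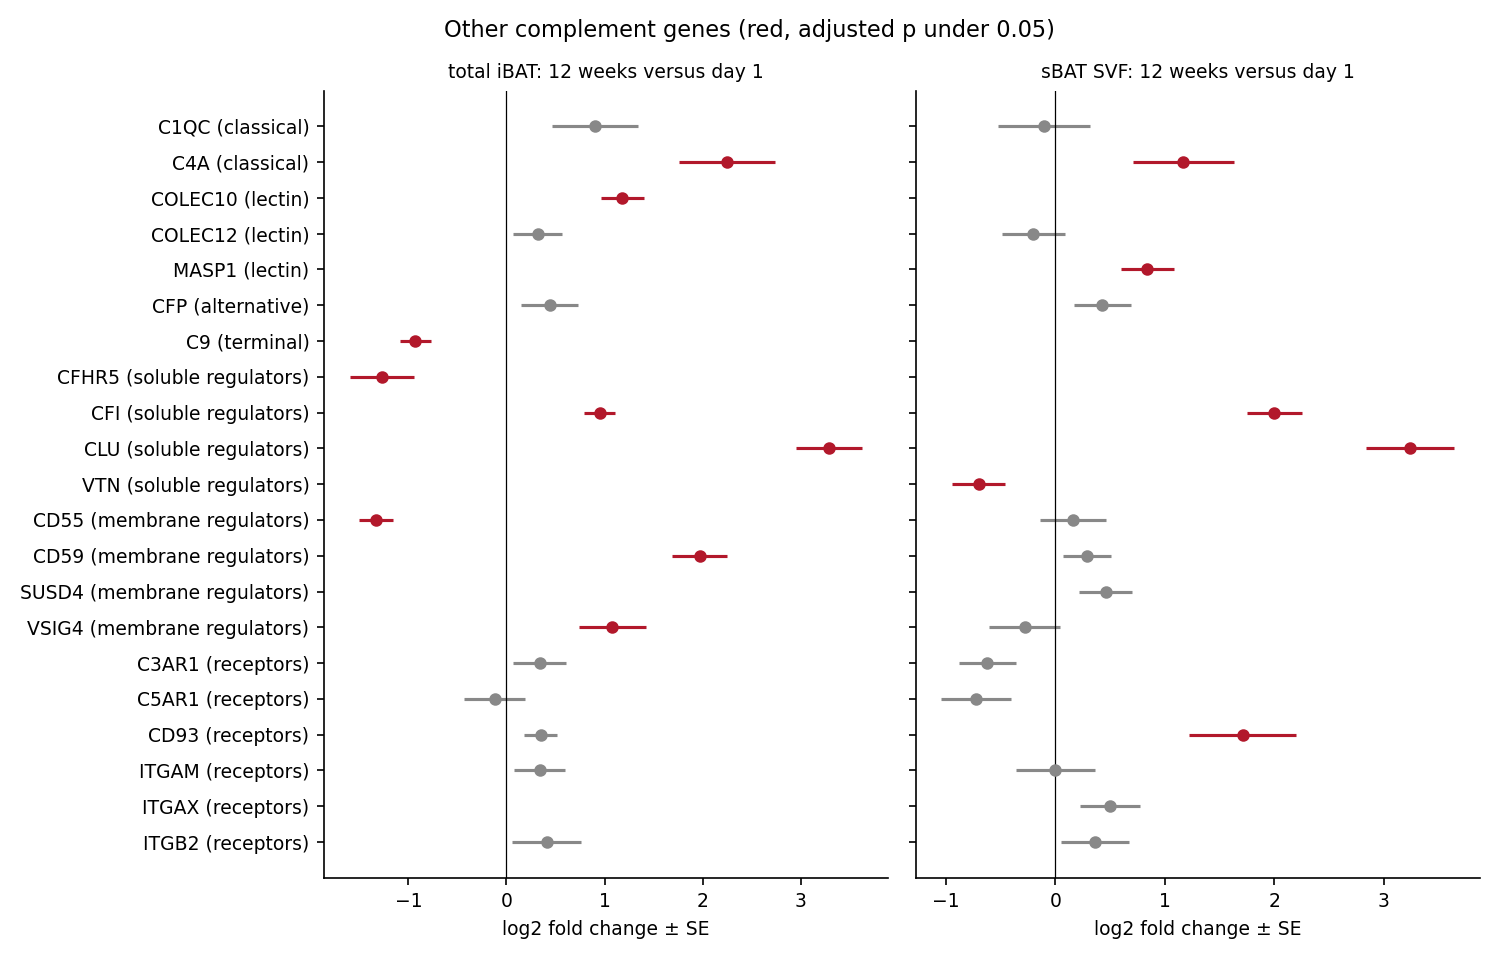
Log2 differences from day 1 to 12 weeks of other listed complement genes that passed the expression minimum, in total iBAT and sBAT SVF, as deposited, with bars of 1 SE and red for an adjusted p under 0.05. COLEC10 and CFHR5 are each listed at 0 in 1 of the ages, so their distance on this scale depends on the pseudocount of 1, and CLU lies farthest to the right in both.

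C4A, which encodes the ligand of C4b-binding protein, had its highest mean at 6 weeks in total iBAT and sBAT SVF. Its mean in total iBAT was 4.12 FPKM at day 1, 53.14 FPKM at 6 weeks and 25.03 FPKM at 12 weeks, with a rise to 12 weeks of 2.25 (limma, adjusted p = 0.00287), while the difference from 6 to 12 weeks, -1.03, was not called (limma, adjusted p = 0.335). In sBAT SVF its means were 28.95, 322.0 and 66.59 FPKM at day 1, 6 weeks and 12 weeks. The rise to 12 weeks there was 1.17 (limma, adjusted p = 0.0432) and was not called after scaling (adjusted p = 0.236), and from 6 to 12 weeks C4A fell by 2.11 (limma, adjusted p = 0.00568). Whether the timing of C4A differs from that of C4BPA was not tested. The FPKM ratio of C4BPA to C4A had medians of 0.157, 0.342, 0.526 and 11.7 at the 4 ages in iBAT SVF. In sBAT SVF the medians were 0.795, 3.43, 0.726 and 4.78, and in total iBAT 0.175, 0.0896, 0.326 and 1.06. At 12 weeks the lowest library lay above the highest of day 1 in all 3 series. The iBAT SVF libraries of those ages chose C4BPA, so that series is a description only.

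Reads of near-identical copies could be split between genes, so the relatives of C4BPA were also read. C4BPA is LOC100343920 in the deposited SVF table and was named through the RefSeq gene list. Its neighbour LOC100352436, which the deposited annotation gives the same KEGG ortholog as C4BPA, reached at most 15.07 FPKM in any SVF library and was highest in sBAT SVF at 6 weeks (10.83 to 15.07 FPKM), while at 12 weeks it held 2.55 to 6.11 FPKM in iBAT SVF. A second gene described as C4b-binding protein alpha chain, LOC103350990, reached at most 0.85 FPKM. A C3-like gene, LOC100346672, reached at most 0.16 FPKM.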

How the data were processed

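Bulk RNA-seq of rabbit BAT was analysed in 36 of 39 labelled samples; the 3 single-cell samples were not analysed here. The authors deposited FPKM (fragments per transcript length and library total) in 2 tables, per the file headers, 1 for total iBAT and 1 for SVF, which were fitted separately. Per the submitters' processing notes, HISAT2 2.0.4, Bowtie2 2.2.5, DESeq2 and the build OryCun2.0 were used; their settings are not given in the sources used here. All value columns were mapped to samples by name.

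From these values log2(FPKM + 1) was computed and tested with limma 3.58.1 (R 4.3.3), two-sided, with 1 mean per group and a variance trend, on genes with at least 1 FPKM in at least 3 libraries. Benjamini-Hochberg adjustment covered all genes tested, and called means an adjusted p under 0.05. The script was tested on simulated data. FPKM shrinks when few genes dominate a library, so median ratio scaling was tried, besides upper quartile scaling, leaving out the 2 dominant genes ADORA1 and UOX, a pseudocount of 0.1, a minimum of 5 FPKM or none, no variance trend, fits of the groups compared only, a replicate block and leaving out libraries. Further alternatives (fits without the sBAT SVF 3 weeks group, without the muscle-rich library, and scaling with each sBAT SVF 3 weeks library left out) were chosen after seeing the data. Read counts could not be recovered from the FPKM, so depth is unknown; gene sums were 389593 to 548723 FPKM per library.

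Replicate numbers were checked for pairing by the correlation of same-numbered libraries' deviations from their group means. All 3 pairs were above 0.1 for 1 of 18 pairs of ages, iBAT SVF at 3 and 6 weeks, and the block called no member there, as without it. Between depots they were for 1 of 4 ages, 12 weeks, where no test between depots was made. The members and all lists were chosen with earlier results of these data known. Named besides the 9 members were listed complement genes called from day 1 to 12 weeks in total iBAT or sBAT SVF, and the 5 genes with the highest correlation to C4BPA among named genes with a mean of at least 10 FPKM in 1 of the SVF groups; NOX5, ALDH1A1 and SMPD3 were named after their values were seen. RefSeq gene names are from mOryCun1.1, not the authors' build, so no coordinates are given. Promoter motifs and protein identities, which had been planned, were not analysed here. Some genes that the naming rule covers are counted but not reported here by name.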

Additional observations from a re-analysis of the deposited data

Results flagged for a closer look

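C7 moved in opposite directions between tissues from day 1 to 3 weeks, which was not tested as a difference. The log2 ratio of the mean FPKM, 3 weeks over day 1, was 2.47 in total iBAT and 1.25 in iBAT SVF, with every 3 weeks library above every day 1 library in both. It was -0.74 in sBAT SVF, where the libraries held 2.76, 4.15 and 6.53 FPKM at 3 weeks against 6.55, 8.90 and 7.03 FPKM at day 1. After median ratio scaling the sBAT SVF libraries overlapped, at 8.93, 7.94 and 12.87 against 6.72, 8.43 and 7.40, and the log2 difference was 0.34.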

How the results depend on the processing

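Over 104 single-gene results and 1696 alternative values, 1448 kept direction and side of the threshold, 131 lost the call, 35 gained one and 82 turned direction, 51 of them with no call before or after. The counts of members called that moved most were those with the sBAT SVF 3 weeks group, under the scalings. From day 1 to 3 weeks in sBAT SVF the count of 1 became 5 with median ratio scaling, upper quartile scaling or the 2 dominant genes left out, 2 with a pseudocount of 0.1, a minimum of 5 FPKM or no variance trend, and 5 with scaling and any 3 weeks library left out. From 3 to 6 weeks there the 8 became 1, 2 and 1 under those 3 scalings, and 0, 0 and 3 with median ratio scaling without replicate 1, 2 or 3 of 3 weeks. Between depots at 3 weeks the 8 became 1 under each of them. From day 1 to 12 weeks in sBAT SVF the 4 became 2 under each of the 3 scalings. In iBAT SVF from 3 to 6 weeks the 0 became 1 under each, and 1 in the fit without the sBAT SVF 3 weeks group. Between depots at 6 weeks the 1 became 2 with the dominant genes left out and in that fit. From 3 to 6 weeks in total iBAT the 1 became 0 with no minimum, with the groups compared only and with the replicate block. The block also ended the call of C2 at 12 weeks in total iBAT and changed no other member's call.

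Leaving out 1 library gave 5 to 8, 7 to 8 and 5 to 6 members called in total iBAT at 3, 6 and 12 weeks against day 1, 0 to 2 from 3 to 6 weeks and 0 from 6 to 12 weeks. In sBAT SVF it gave 1 to 3, 7 to 8 and 2 to 4 against day 1, 8 from 3 to 6 weeks and 2 to 4 from 6 to 12 weeks. It gave 0 to 1 in iBAT SVF from 3 to 6 weeks, and 7 to 8 and 0 to 2 between depots at 3 and 6 weeks.

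The turned directions with a call before or after all involved the sBAT SVF 3 weeks group. In the order median ratio, upper quartile, dominant genes left out and median ratio without each 3 weeks library, C3 at 3 weeks against day 1 was 1.12, 1.13, 1.19, 1.16, 1.12 and 1.10 in place of -0.04, and C1S was 1.11, 1.11, 1.16, 1.26, 1.01 and 1.05 in place of -0.07. SERPING1 from 3 to 6 weeks was -0.26, -0.24, -0.40, -0.31, -0.11 and -0.37 in place of 1.25. C3 between depots at 3 weeks was 0.47, 0.44, 0.81, 0.51, 0.46 and 0.45 in place of -0.77. With the dominant genes left out, C4BPA and C1S from 3 to 6 weeks were -0.03 and -0.12, and C1S, C1R and SERPING1 between depots were 0.17, 0.05 and 0.18. With median ratio scaling without 3 weeks replicate 1, C4BPA and C1S from 3 to 6 weeks were -0.06 and -0.14. Of values never called, C7 at 3 weeks against day 1 in sBAT SVF was, in that order, 0.34, 0.34, 0.40, 0.39, 0.47 and 0.15 in place of -0.68, and C2 was 0.08, 0.09, 0.14, 0.16 and 0.36 in place of -0.96, without turning when 3 weeks replicate 3 was left out. CFB there was 0.18 with median ratio scaling without replicate 1. C1R was -0.04 from 3 to 6 weeks in iBAT SVF with the dominant genes left out, and -0.06 between depots at 6 weeks with median ratio or upper quartile scaling.

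Leaving out 1 library turned other uncalled values near 0. In total iBAT from 3 to 6 weeks the ranges were -0.16 to 0.78 for C3, -0.24 to 0.57 for C1S, -0.83 to 0.40 for CFB and -0.09 to 0.42 for C7. In iBAT SVF over the same ages they were -0.19 to 0.41 for C3, -0.56 to 0.08 for C1S, -0.17 to 0.53 for C1R, -0.60 to 0.79 for CFB, -0.01 to 0.60 for C2 and -0.27 to 0.13 for SERPING1. In sBAT SVF they were -0.18 to 0.23 for C3 and -0.30 to 0.32 for C1S at 3 weeks against day 1, -0.54 to 0.37 for C2 at 12 weeks against day 1, and -0.03 to 0.53 for C4BPA and -0.39 to 0.07 for SERPING1 from 6 to 12 weeks. Between depots at 6 weeks they were -0.11 to 0.70 for C1R, -0.74 to 0.07 for C7 and -0.30 to 0.16 for SERPING1. Depth is unknown, so no limit from it can be given for C6. The cause of these changes was not tested.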

Other observations

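Replicate 2 of 3 weeks was the highest of its group for C4BPA, C3, C1S, C1R, CFB, C2 and SERPING1 in total iBAT and also in iBAT SVF. CFB, for example, stood at 3.35, 22.92 and 4.41 FPKM in total iBAT and at 8.05, 44.62 and 5.61 FPKM in iBAT SVF, and C4BPA at 2.50, 9.70 and 0.94 FPKM and at 10.94, 47.79 and 17.21 FPKM. The labels do not say whether libraries of the same number came from 1 animal, and pairing between total iBAT and iBAT SVF was not checked. How many of all genes shared this order was not counted. C7 did not follow: in iBAT SVF replicate 2 was the lowest, with 9.63 FPKM against 21.94 and 17.22 FPKM.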
